A study of Mus musculus with 48 samples.

Results

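Transcripts of 7 genes of cholesterol synthesis, Hmgcs1, Idi1, Fdft1, Sqle, Lss, Cyp51 and Insig1, were followed by RNA-sequencing in mouse brain tissue. The genes were chosen by name for their place in the pathway, with earlier results of these data known. They were matched to the Ensembl identifiers of the read count tables by gene symbol, and make up 7 of the 48709 genes counted. All 7 were found and all 7 passed the filter on low counts in every comparison.

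The data come from 48 sequencing runs of 46 mice in 8 groups, all labelled C57BL/6J and dentate gyrus. The methods give the sex as male. In the Fmn2 experiment, mice labelled FMN2 knock out (Fmn2-/-), which lack the actin nucleator formin 2 constitutively, were compared with wild-type (Fmn2+/+) mice at 3 months (5 and 5 mice) and at 8 months (5 Fmn2-/- and 3 Fmn2+/+ mice). In the amyloid cross, all mice carried the APP transgenes and were 3 months old, with 7 mice labelled FMN2-/-_APP and 9 labelled FMN2 +/+ APP, written here FMN2+/+_APP. In the remaining experiment, 6 mice labelled APP were compared with 6 labelled wild type at 4 months. The published text speaks of a younger age for such a comparison, and the age of the labels is used here. The APP line is APPPS1-21, in which the promoter of the neuronal gene Thy1 drives mutant human amyloid precursor protein and presenilin.

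Cells make cholesterol from acetyl-CoA through mevalonate, squalene and lanosterol. When sterols are scarce in the endoplasmic reticulum, the transcription factor SREBP-2 is released from its anchor, the SCAP-INSIG complex, and raises transcription of nearly every enzyme of the route. The brain makes almost all of its own cholesterol, since lipoproteins of the blood do not cross the blood-brain barrier. Oligodendrocytes need most of it for myelin, and in the adult brain astrocytes make much of the rest.

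Reads on genes ranged from 6818809 to 43921030 per mouse. The level of Fmn2 was checked first. It was lower in Fmn2-/- than in Fmn2+/+ mice by -2.06 on the log2 scale at 3 months and -1.89 at 8 months, but it was 2.15 higher in the libraries labelled FMN2-/-_APP than in those labelled FMN2+/+_APP. The labels of the cross thus go against the gene they name, and every direction drawn from these libraries is given by label only. The 4-month libraries held 89.6 to 126 CPM (counts of a gene scaled to the library's total and by edgeR's TMM method over all 46 mice) of 6 dentate granule cell markers in sum, against 504 to 977 in all other libraries, and 549 to 635 CPM of 6 cortical layer markers, against 165 to 343. This goes against the tissue label of the 4-month libraries, and their titles name the prefrontal cortex.

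Hmgcs1 (ENSMUSG00000093930; mm10 chromosome 13, 119690379 to 119708260, plus strand) encodes the cytosolic synthase that adds an acetyl group to acetoacetyl-CoA on the way to mevalonate. Idi1 (ENSMUSG00000058258; chromosome 13, 8885501 to 8892451, plus strand) encodes the isomerase that makes dimethylallyl diphosphate. Fdft1 (ENSMUSG00000021273; chromosome 14, 63145150 to 63179578, minus strand) encodes squalene synthase, the first enzyme committed to sterols. Sqle (ENSMUSG00000022351; chromosome 15, 59315077 to 59331192, plus strand) encodes squalene epoxidase, a rate-limiting step after mevalonate. Lss (ENSMUSG00000033105; chromosome 10, 76531588 to 76557138, plus strand) encodes lanosterol synthase, which closes the sterol rings. Cyp51 (ENSMUSG00000001467; chromosome 5, 4081145 to 4104746, minus strand) encodes the demethylase that acts on lanosterol. Insig1 (ENSMUSG00000045294; chromosome 5, 28071363 to 28078662, plus strand) is no enzyme but the retention protein that holds SCAP back, and is itself a target of SREBP. All 7 are annotated as protein-coding, and the counts cover whole genes.

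Counting was not equally sure for all 7. Of the 50-base words in the Idi1 transcript, 30.5% also occur in transcripts of 5 other annotated genes, and Idi1 was counted with only 7 to 98 reads per mouse. In Fdft1 the share was 30.7%, shared with Ctsb, a gene on the opposite strand that overlaps it, and with Gm6781, and in Hmgcs1 it was 13.6%. In Cyp51, Lss, Insig1 and Sqle it was 3.17% or less. The library kit does not mark strand, so reads of Fdft1 and Ctsb in the overlap cannot be told apart by strand. How such reads were counted is not known, since the strand setting is not given.

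Promoter sequence was found for 5 of the 7 genes in the RefSeq table of GRCm38.p6, the same assembly as mm10 (Sqle and Fdft1 had no entry). The 250 bases before each start were searched on both strands for CACNCCAC, a core of the sterol regulatory element bound by SREBP, for CCAAT, the box bound by NF-Y, and for GGGCGG, the box bound by Sp1, which are known co-factors of SREBP. The first was found in Hmgcs1 and Insig1 and in 5.29% of all 32851 windows. CCAAT was found in all 5 genes and in 33.8% of windows, and GGGCGG in all 5 and in 32.7%. A match describes these letters only and is no proof of a site. The stretches before the RefSeq and GENCODE starts of Hmgcs1 (chr13:119690101-119690350, plus strand), Insig1 (chr5:28071162-28071362, plus strand) and Lss (chr10:76531355-76531587, plus strand) are shown because these genes differed in the 4-month comparison, and because Lss did not follow the other 2 from mouse to mouse. Capitals mark matches, and CCAAT and GGGCGG on the other strand read ATTGG and CCGCCC. The match of Insig1 to CACNCCAC lies after the stretch shown.
Hmgcs1: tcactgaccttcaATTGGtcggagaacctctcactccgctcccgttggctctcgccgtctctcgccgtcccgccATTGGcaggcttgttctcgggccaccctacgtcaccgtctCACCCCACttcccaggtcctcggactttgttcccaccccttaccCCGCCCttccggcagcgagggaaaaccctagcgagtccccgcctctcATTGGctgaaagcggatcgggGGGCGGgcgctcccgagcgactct
Insig1: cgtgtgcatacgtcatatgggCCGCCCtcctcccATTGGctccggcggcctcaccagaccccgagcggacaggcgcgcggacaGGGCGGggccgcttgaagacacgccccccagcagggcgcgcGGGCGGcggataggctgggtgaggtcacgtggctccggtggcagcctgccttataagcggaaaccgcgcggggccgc
Lss: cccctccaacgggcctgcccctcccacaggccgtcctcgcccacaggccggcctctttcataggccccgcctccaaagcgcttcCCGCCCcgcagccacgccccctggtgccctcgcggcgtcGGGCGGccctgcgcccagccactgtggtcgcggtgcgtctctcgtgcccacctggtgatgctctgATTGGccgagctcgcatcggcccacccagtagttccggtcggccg

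The plot of levels in each mouse shows the 7 genes over the 8 groups. Per kilobase of exon, Hmgcs1 was the most abundant in every group, with group means between 47.0 and 96.1 CPM per kilobase. Insig1, Sqle, Fdft1 and Cyp51 lay close together, between 9.84 and 21.9, and Lss lower, between 2.72 and 5.59. Idi1 was the lowest at 0.378 to 0.736 CPM per kilobase. For all 7 genes the highest mean was that of the APP mice of 4 months. Whether the experiments were prepared together is not given in the sources used here. The 4-month tissue differs by its markers, so levels were not tested between experiments.

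**Figure D1:**
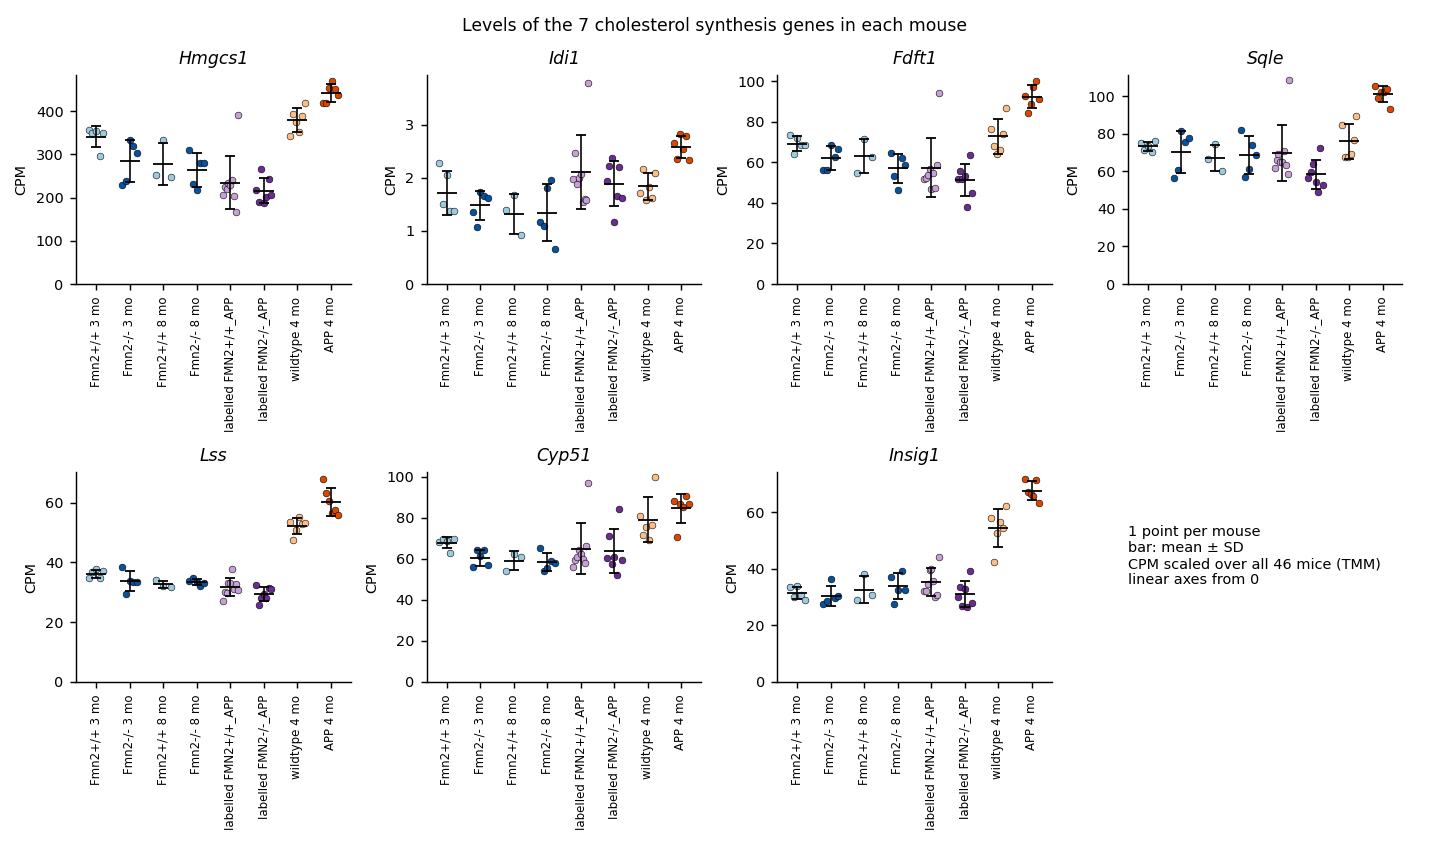
CPM of each gene (vertical axes, linear from 0) in each of 46 mice, by group along the horizontal axes, with 1 point per mouse and a bar for the mean and SD of the group. APP mice of 4 months have the highest mean in all 7 panels, and the point far above the others in the libraries labelled FMN2+/+_APP is replicate 9 in 5 of them.

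Lss set the 4-month libraries apart most. Its lowest 4-month mouse had 47.4 CPM and the highest of all other mice 38.4, so these libraries did not overlap. In the other 6 genes they did. Insig1 came close, with 42.5 CPM in the lowest 4-month mouse and 44.2 in the highest of the others.

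The comparison of APP with wild-type mice at 4 months was meant to address amyloid in young animals. Genotype and sequencing lane coincided in it, so their effects cannot be told apart. Of the 7 genes, 6 rose in APP mice and 0 fell (adjusted p under 0.05, quasi-likelihood test of edgeR, adjusted by Benjamini-Hochberg over all genes tested). Of 16733 genes tested, 3.81% passed in either direction and 2.93% were higher. The median log2 fold change was 0.32 over the 7 genes and -0.0004 over all genes tested. In bulk tissue, fewer cells of a type and less RNA per cell cannot be told apart.

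Sqle showed the smallest adjusted p. Its level was 67.7 CPM in the lowest wild-type mouse, 72.9 in the median and 89.6 in the highest, and 93.3, 102.2 and 105.3 in APP mice. The groups did not overlap. The log2 fold change was 0.42 (SE 0.064, adjusted p = 0.00035), a 1.34-fold difference.

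Fdft1, the enzyme before Sqle, had 64.1, 71.2 and 87.0 CPM (lowest, median and highest) in wild-type mice and 84.5, 91.96 and 100.1 in APP mice. Only the highest wild-type mouse, replicate 6, reached into the range of the APP mice. The log2 fold change was 0.36 (SE 0.063, adjusted p = 0.00182). For Ctsb, the gene that overlaps it, the log2 fold change was 0.18 (SE 0.051, adjusted p = 0.0565). Whether Ctsb reads had any part in the Fdft1 difference was not tested.

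Hmgcs1 had 343, 382 and 417 CPM in wild-type mice and 417, 445 and 469 in APP mice. The lowest APP mouse stood just above the highest wild-type mouse, so there was no overlap. The log2 fold change was 0.23 (SE 0.048, adjusted p = 0.00623). Insig1, the sterol sensor's anchor, had 42.5, 55.5 and 62.2 CPM in wild-type mice and 63.2, 66.6 and 71.8 in APP mice, again without overlap. Its log2 fold change was 0.32 (SE 0.070, adjusted p = 0.00972).

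Lss had 47.4, 53.0 and 55.3 CPM in wild-type mice and 56.0, 59 and 68 in APP mice, without overlap (log2 fold change 0.22, SE 0.055, adjusted p = 0.0296). Idi1 had 1.58, 1.77 and 2.17 CPM in wild-type mice and 2.33, 2.60 and 2.83 in APP mice, also without overlap (log2 fold change 0.49, SE 0.12, adjusted p = 0.0285). These calls were less firm than the others. The call of Idi1 was lost when any of 8 of the 12 mice was left out (APP replicates 1, 3, 4 and 5 and wild-type replicates 1, 3, 4 and 5), and that of Lss when any of 7 was (APP replicates 1, 2 and 3 and wild-type replicates 2, 3, 5 and 6). Sqle, Fdft1, Hmgcs1 and Insig1 passed without any of the 12 mice.

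Cyp51 did not pass. It had 69.3, 76.0 and 99.9 CPM in wild-type mice and 70.9, 86.6 and 90.9 in APP mice, and the highest value of the comparison was that of wild-type replicate 6 (log2 fold change 0.11, SE 0.076, adjusted p = 0.57). In all, 5 of the 7 genes had groups that did not overlap, against 3.37% of all genes tested.

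**Figure D2:**
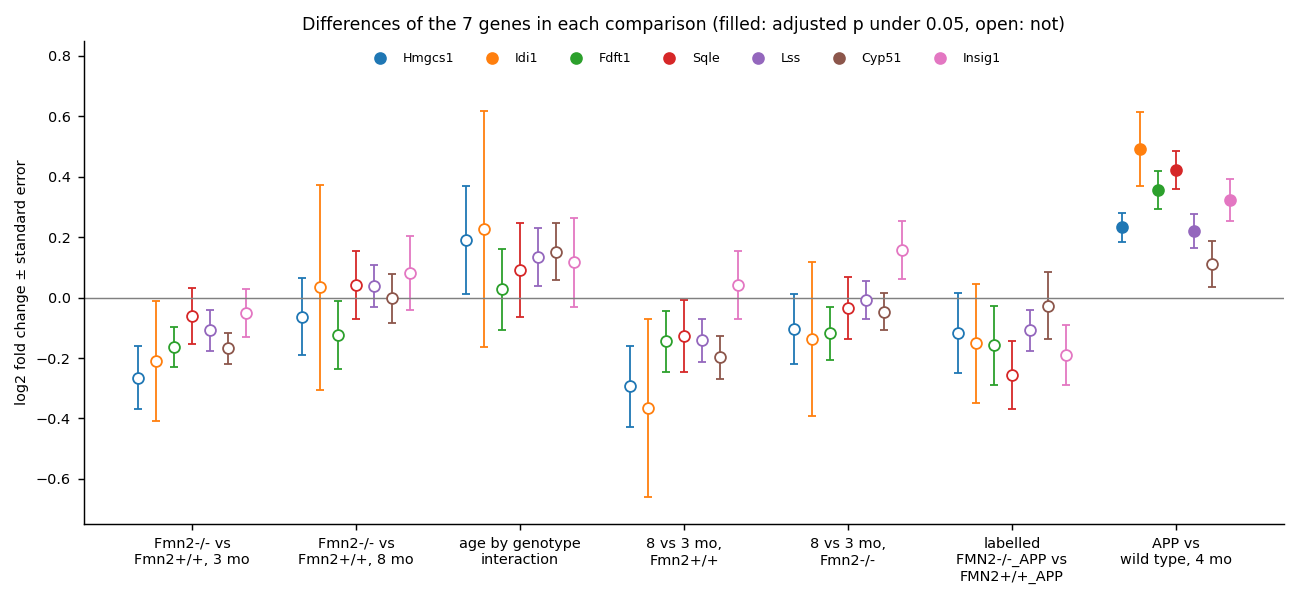
Log2 fold change of each gene with its standard error (vertical axis) in 7 comparisons (horizontal axis), filled where the adjusted p was under 0.05. Filled points stand only in the 4-month comparison, where 6 of 7 genes passed, and the open point there is Cyp51 at 0.11.

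The other genes of the pathway came from lists that were named by function. Of 16 further enzymes of the route, 9 rose in APP mice and 0 fell, with a median log2 fold change of 0.21. Nsdhl, an enzyme that works after Cyp51, had 26.1 to 31.1 CPM in wild-type mice and 35.1 to 40.1 in APP mice (log2 fold change 0.38, SE 0.052, adjusted p = 0.000105). Acat2, the thiolase that opens the route, had 23.5 to 29.9 and 33.3 to 40.8 CPM (0.45, SE 0.069, adjusted p = 0.00039). The ranges of neither gene overlapped. Fdps, which makes the farnesyl diphosphate that Fdft1 joins, was counted at 2.73 to 4.17 CPM in wild-type and 4.69 to 6.59 in APP mice (0.71, SE 0.12, adjusted p = 0.00146). Msmo1, the oxidase that removes methyl groups, had 91.8 to 115 and 112 to 131 CPM, which overlap (0.29, SE 0.054, adjusted p = 0.00273).

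Of 14 genes of SREBP control and sterol uptake, 4 rose and 0 fell, with a median log2 fold change of 0.022. Stard4, a cytosolic sterol carrier that SREBP-2 controls, had 38.9 to 49.7 CPM in wild-type and 57.5 to 71.1 in APP mice (0.55, SE 0.066, adjusted p = 2.62e-05). Npc2, the lysosomal protein that hands sterol to the membrane, had 41.0 to 48.1 and 64.8 to 76.6 CPM (0.68, SE 0.054, adjusted p = 1.41e-07). Neither gene overlapped between groups. Srebf2, which encodes SREBP-2, was also among those that rose (0.17, adjusted p = 0.0274). Of 7 genes of export, storage and turnover only Apoe, the main apolipoprotein of the brain, rose (0.27, adjusted p = 0.00783). Of 10 genes of fatty acid synthesis 0 passed with edgeR, and 3 had an unadjusted p under 0.05, beside 2396 of all 16733 genes. The plot in pathway order shows these genes side by side.

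**Figure D3:**
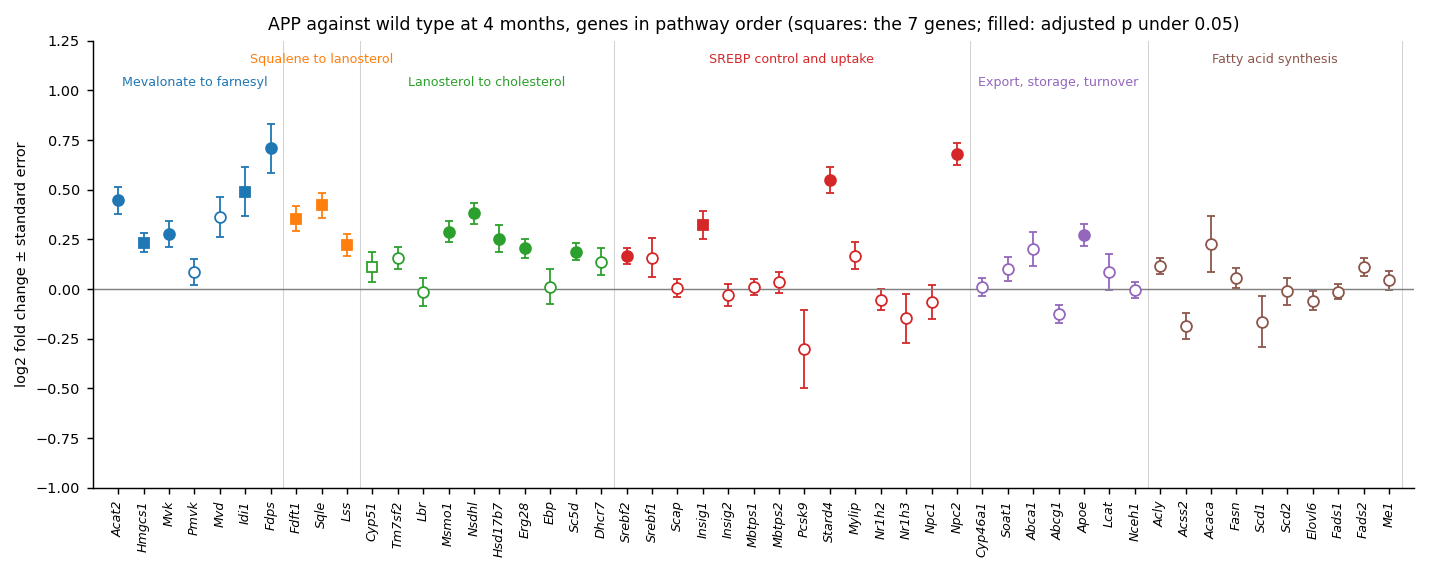
Log2 fold change of APP against wild-type mice at 4 months with its standard error (vertical axis) for genes of the lists in pathway order (horizontal axis), with squares for the 7 genes and filled symbols where the adjusted p was under 0.05. Of the 7 squares 6 are filled and all lie above 0, while 0 of 10 genes of fatty acid synthesis are filled.

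Other features of the libraries moved with this comparison. All 6 APP mice were sequenced on lane 7 and all 6 wild-type mice on lane 5, so lane and genotype cannot be told apart. The APP libraries held 23970623 to 31163948 reads and the wild-type libraries 16479658 to 25184663. All 6 microglia markers were higher in APP mice, with a summed level of 407 to 530 CPM against 263 to 288, and no marker was at 0. The 8 markers of myelinating oligodendrocytes summed to 1469 to 2209 CPM in APP mice and 2364 to 6589 in wild-type mice, with 1 of 8 lower by the test and all 8 below 0. The 6 astrocyte markers summed to 3379 to 4273 and 3474 to 4231 CPM, with 2 of 6 higher. The part of these cell types in the differences of the 7 genes was not tested. Without wild-type replicates 3 and 4, the mice with the most myelin transcripts, 5 of the 7 genes passed, all but Idi1 and Cyp51. Of the 16 further enzymes 5 did. The wild-type mice kept held 2364 to 2718 CPM of the myelin markers, each above every APP mouse, so this fit did not remove the difference in myelin transcripts.

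In the Fmn2 experiment at 3 months, none of the 7 genes passed the test between Fmn2-/- and Fmn2+/+ mice. With edgeR 5 of 16630 genes passed in all (0.0301%). At an unadjusted p under 0.05 there were 3 of the 7 genes and 1750 of all genes, and DESeq2 called 0 of the 7. All 7 log2 fold changes were below 0, with a median of -0.16.

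Hmgcs1 had 356, 348, 353, 296 and 349.6 CPM in the 5 Fmn2+/+ mice and 229.7, 237, 334, 319 and 303 in the 5 Fmn2-/- mice. The low values of Fmn2-/- replicates 1 and 2 stood apart from the other Fmn2-/- mice, which reached into the Fmn2+/+ range. These 2 mice also had the lowest sums of neuron markers in their group, 6036 and 6685 CPM, against 7452 to 8071. The part of tissue makeup in this was not tested. The log2 fold change of Hmgcs1 was -0.26 (SE 0.10, adjusted p = 0.414). Cyp51 had 68.2, 69.7, 68.6, 63.1 and 69.7 CPM in Fmn2+/+ and 56.0, 64.5, 61.6, 64.1 and 56.8 in Fmn2-/- mice. Here only Fmn2+/+ replicate 4 lay within the range of the Fmn2-/- mice (-0.17, SE 0.053, adjusted p = 0.306).

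Fdft1 differed by -0.16 (SE 0.067, adjusted p = 0.424), Lss by -0.11 (SE 0.068, adjusted p = 0.602) and Idi1 by -0.21 (SE 0.20, adjusted p = 0.744). The smallest differences were those of Sqle (-0.061, SE 0.093) and Insig1 (-0.049, SE 0.080). The groups overlapped for all 7 genes, while 2.71% of all genes did not overlap. Fmn2-/- replicate 4 held 4137 CPM of choroid plexus markers in sum, against 23.6 to 67.9 in the other mice of this comparison. All Fmn2+/+ mice ran on lane 5, and 4 of the 5 Fmn2-/- mice on lane 6. With lane as a covariate the median became -0.30, with 1 gene above 0. In that fit genotypes meet only on lane 5, through a single Fmn2-/- mouse, replicate 1. None of the pathway lists had a gene that passed, of 46 tested, and 6 had an unadjusted p under 0.05, beside 1750 of all 16630 genes.

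At 8 months none of the 7 genes passed with edgeR or DESeq2, and none had an unadjusted p under 0.05, while 1.13% of 14665 genes passed with edgeR. Hmgcs1 had 252, 333 and 247 CPM in Fmn2+/+ mice and 311, 230.3, 218, 280.1 and 279 in Fmn2-/- mice. The groups overlapped here and in the other 6 genes, while 11.7% of all genes did not overlap. Log2 fold changes lay between -0.12 (Fdft1, SE 0.11) and 0.082 (Insig1, SE 0.12). Their median was 0.034 and turned to -0.070 when the fit was corrected for GC content and length of genes. Its sign also turned without Fmn2+/+ replicate 1 (-0.018) or 3 (-0.017) and without Fmn2-/- replicate 1 (-0.027) or 4 (-0.0089), and without Fmn2+/+ replicate 2 it was 0.090, with 6 of 7 genes above 0.

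The Fmn2+/+ libraries of 8 months held 43921030, 6818809 and 8381078 reads and the Fmn2-/- libraries 9175551 to 11675280. Fmn2-/- replicates 2 and 3 were closer to each other than the rest of the group, with a chi-square per degree of freedom of 1.62 where the other pairs had 3.50 to 6.40, and as 1 summed sample they left 0 of the 7 genes passing. For 46 further pathway genes, 0 passed with edgeR and 12 had an unadjusted p under 0.05, beside 3419 of all 14665 genes. DESeq2 called 1 enzyme of the route lower and 697 genes in all. Summed astrocyte markers lay at 4878 to 5508 CPM in Fmn2-/- and 4186 to 4591 in Fmn2+/+ mice. Summed microglia markers lay at 279 to 315 and 240 to 270 CPM. The sums of the other marker lists overlapped between genotypes, and the part of these cell types was not tested.

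Whether the effect of genotype differed between ages was tested as an interaction. None of the 7 genes passed with edgeR or DESeq2 or had an unadjusted p under 0.05, against 3.73% of 17046 genes that passed with edgeR. All 7 estimates were above 0, between 0.027 (Fdft1, SE 0.13) and 0.23 (Idi1, SE 0.39). Among 46 pathway genes tested, 2 passed, both with the opposite sign. They were Pmvk, the kinase after mevalonate kinase (-0.42, SE 0.098, adjusted p = 0.0257), and Scap, the sterol sensor that escorts SREBP (-0.42, SE 0.10, adjusted p = 0.0325). Both calls were lost with replicates 2 and 3 summed, with the correction for length and GC content and with a block for replicate number.

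With age, Fmn2+/+ mice showed lower values in 6 of 7 genes, with a median of -0.14, but none of the 7 passed with edgeR. An unadjusted p under 0.05 was found for 2 of the 7 and for 4653 of all 17046 genes. DESeq2 called Cyp51, and 2435 genes in all. The background here is high, with 10.5% of all genes passing. Cyp51 had 53.9, 62.6 and 61.2 CPM at 8 months, below all 5 mice of 3 months (-0.20, SE 0.071, adjusted p = 0.0775). Lss had 34.8, 36.8, 37.7, 34.9 and 37.0 CPM at 3 months and 34.0, 32.0 and 31.7 at 8 months, without overlap (-0.14, SE 0.072, adjusted p = 0.211). That 2 of 7 genes did not overlap stands beside 16.7% of all genes. Without Fmn2+/+ replicate 2 of 8 months, Hmgcs1 (-0.45, adjusted p = 0.0386) and Cyp51 (-0.25, adjusted p = 0.0393) passed. In that fit 3307 genes passed in all, against 1787 with every mouse kept.

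In Fmn2-/- mice the median change with age was -0.046, and 0 of the 7 genes passed with edgeR or DESeq2 or at an unadjusted p under 0.05, against 8.82% of all genes with edgeR. All 7 genes overlapped between ages, against 9.22% of all genes that did not. Insig1 alone was above 0 (0.16, SE 0.096, adjusted p = 0.355).

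Of 46 pathway genes tested, 5 passed with age in Fmn2+/+ mice, beside 10.5% of all genes, and 2 in Fmn2-/- mice, beside 8.82%. In Fmn2+/+ mice Pmvk (0.26, adjusted p = 0.0298), Srebf1, which encodes the fatty acid branch of SREBP (0.30, adjusted p = 0.0401), Scap (0.31, adjusted p = 0.0153) and Npc2 (0.32, adjusted p = 0.00853) rose. Fads2, a fatty acid desaturase (-0.50, adjusted p = 0.00619), fell. In Fmn2-/- mice Abca1, the sterol exporter, rose (0.32, adjusted p = 0.0353), and Nr1h2, which encodes the oxysterol receptor LXR-beta, fell (-0.34, adjusted p = 0.0334). The call of Pmvk with age was lost without the filter on low counts and with the correction for length and GC content, and in both settings 2 rather than 3 genes of SREBP control and uptake rose in Fmn2+/+ mice. With each mouse left out, 0 to 4 of these genes rose. The call of Nr1h2 was lost with the same correction and with replicates 2 and 3 summed. The comparisons of this experiment share their mice, and within a genotype no lane held both ages, so lane and age cannot be told apart.

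In the amyloid cross, none of the 7 genes passed between the libraries labelled FMN2-/-_APP and those labelled FMN2+/+_APP. DESeq2 also called 0, while 1.57% of 16656 genes passed with edgeR. An unadjusted p under 0.05 was found for 1 of the 7 (Sqle) and for 2772 of all genes tested. All 7 log2 fold changes were below 0, with a median of -0.15, by labels that Fmn2 itself contradicts. Sqle had 48.8, 56.7 and 72.2 CPM (lowest, median and highest) in the libraries labelled FMN2-/-_APP and 58.8, 65.04 and 108 in those labelled FMN2+/+_APP (-0.26, SE 0.11, adjusted p = 0.257). The groups overlapped for all 7 genes, and 0.546% of all genes did not overlap.

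The direction rested in part on 1 mouse. Replicate 9 of the libraries labelled FMN2+/+_APP was the highest of its group in 6 of the 7 genes, with 390.0 CPM of Hmgcs1 where the next had 239.7, 94.2 of Fdft1 where the next had 58.6, and 96.95 of Cyp51 where the next had 66.2. Lss, at 30.6 CPM, lay within its group. Without this mouse the median over the 7 genes was -0.039, and Hmgcs1 (0.0062) and Cyp51 (0.065) were above 0. This library also held the most astrocyte transcripts, 6592 CPM in sum, and ran on lane 7 alone, as did replicate 8, which held 6024. The other 7 mice of the group held 4020 to 4332, among them replicate 7 with 4138, whose reads came from lanes 4 and 7. On the log2 scale, the 7 genes deviated from their group mean by 0.56 on average in replicate 9 and by -0.15 in replicate 8. The part of astrocyte transcripts in the result was not tested. With lane as a covariate the median was -0.056. Choroid plexus markers reached 9200 CPM in replicate 4 and 6035 in replicate 5 of the same label. Without both of these the median was -0.17, and 0 of the 7 genes passed. None of 46 further pathway genes passed with edgeR, and 5 had an unadjusted p under 0.05, beside 2772 of all 16656 genes.

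To see whether the 7 genes moved together from mouse to mouse, each mouse's deviation from its group mean on the log2 scale was taken, so that differences between groups play no part. All 15 pairs among the 6 genes other than Lss had a positive r over 46 mice, from 0.36 (Idi1 and Cyp51) to 0.84 (Sqle and Fdft1). Lss had an r of -0.12 to 0.16 with the other 6. Against the mean of the other 6 genes, r was 0.89 for Sqle, 0.79 for Fdft1, 0.75 for Hmgcs1, 0.71 for Cyp51, 0.70 for Insig1, 0.50 for Idi1 and -0.026 for Lss. These values describe libraries that were scaled together and whose preparation batches are not given, and carry no test.

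**Figure D4:**
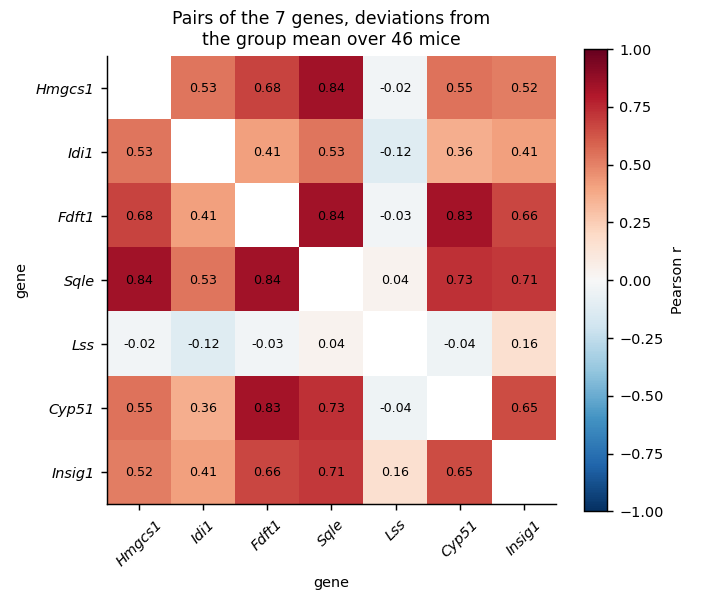
Pearson r between pairs of the 7 genes (both axes list the genes, colour gives r) over deviations from the group mean in 46 mice. The row and column of Lss stand near 0, between -0.12 and 0.16, while all other pairs are between 0.36 and 0.84.

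Lss thus rose with the others between the 4-month groups but did not follow them from mouse to mouse. Its deviations were also the smallest, with an SD of 0.095 on the log2 scale against 0.16 to 0.33 for the other genes. Lss had the lowest r of the 7 genes in each experiment, with -0.12 in the Fmn2 experiment, -0.019 in the cross and 0.12 in the 4-month mice. For Sqle these were 0.79, 0.95 and 0.85. Other genes were also weak in places, with 0.34, 0.69 and 0.29 for Idi1 and 0.36, 0.86 and 0.81 for Cyp51 in the same order. Hmgcs1 followed the others less closely in the 4-month mice (0.29) than in the Fmn2 experiment (0.76) or the cross (0.80), and that difference was not tested. Without the 2 mice farthest from the median, replicate 9 labelled FMN2+/+_APP and replicate 7 labelled FMN2-/-_APP, r was 0.81 for Sqle, 0.63 for Insig1, 0.62 for Fdft1, 0.60 for Hmgcs1 and -0.038 for Lss. It fell most for Cyp51, to 0.48, and for Idi1, to 0.32.

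Of 11983 other genes with a mean log2 CPM above 2, the 10 most like the mean of the 7 genes included Msmo1 (r = 0.89), Stard4 (0.84), Acat2 (0.76), Nsdhl (0.75), Atp6ap2 (0.75), Idh1 (0.74), Hsp90aa1 (0.73) and Tuba1a (0.73). The leading 6 all came from the lists of pathway genes. The ranking itself did not use these lists, but they were chosen with earlier results of these data known. Atp6ap2 encodes an accessory protein of the proton pump of vesicles, Idh1 the cytosolic enzyme that makes NADPH from isocitrate, Hsp90aa1 a heat shock chaperone and Tuba1a a tubulin of neurons. Over all 11983 genes the median r was 0.032, and 1% had an r above 0.61. Without the same 2 mice, r ran from 0.81 (Msmo1) to 0.47 (Tuba1a) among these 10.

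The shared deviation of the 7 genes also ran along with tissue markers. Its r over 46 mice was -0.69 with the summed dentate granule cell markers, 0.51 with the summed neuron markers, -0.43 with endothelial and -0.32 with microglia markers, and 0.041 with those of myelinating oligodendrocytes. Without the 2 farthest mice the first of these was -0.63 and the second 0.64. Single markers within a list differed. Of the neuron markers, Stmn2 had an r of 0.67 over 46 mice, Tubb3 0.63, Snap25 0.44, Syt1 0.29 and Rbfox3 -0.37. Among the granule cell markers r ran from -0.61 (Pdzd2) to -0.017 (C1ql2). Within the Fmn2 experiment the r with granule cell markers was -0.60, in the cross -0.73 and in the 4-month mice -0.66. The 4-month value rests on fewer markers, since 2 of the 6 in APP mice and 3 in wild-type mice had a mean under 1 CPM. By their markers these libraries also go against the dentate gyrus label. For the neuron markers r varied more, with 0.78, 0.37 and 0.30 in the same order. The part of tissue makeup or dissection in the shared deviation was not tested.

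**Figure D5:**
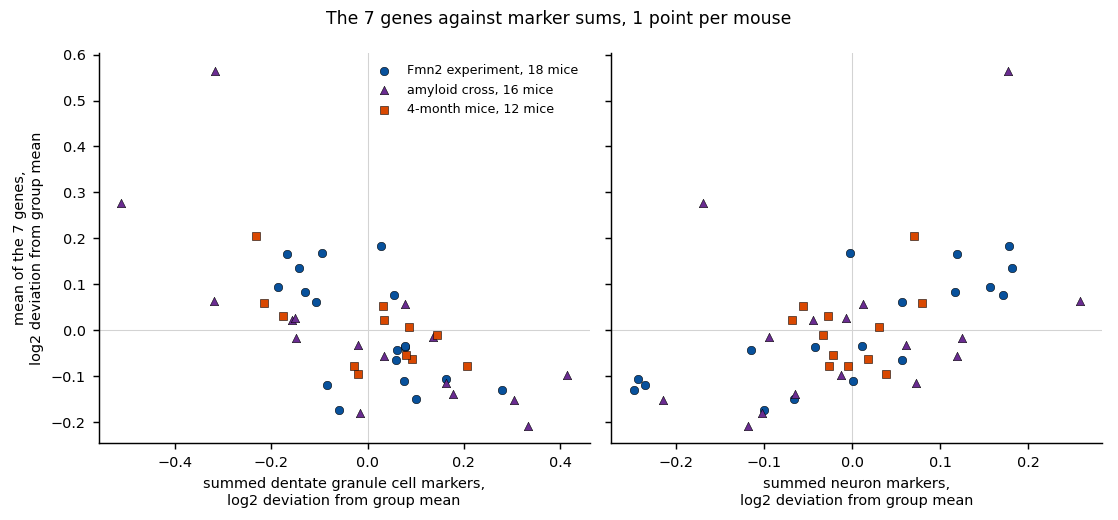
Mean deviation of the 7 genes from the group mean (vertical axis, log2 scale) against the deviation of summed dentate granule cell markers (left) and summed neuron markers (right), with 1 point per mouse and colours and shapes for the 3 experiments. The points fall from left to right in the left panel (r = -0.69) and rise in the right panel (r = 0.51), and the highest point is replicate 9 labelled FMN2+/+_APP at 0.56.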

How the data were processed

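RNA of whole tissue was isolated with TRIZOL and sequenced from TruSeq v2 libraries, which do not mark strand. The authors aligned reads to mm10 with STAR, counted them per Ensembl gene with HTSeq in the mode intersection-non-empty, and deposited these read counts without normalization, 1 table per run. The annotation release and the strand setting are not given in the sources used here. Both runs of each of 2 mice were summed. Reads per mouse ranged from 6818809 to 43921030, and low depth mainly limits Idi1.

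Counts were analysed with edgeR 4.0.16 (R 4.3.3): filterByExpr, TMM, quasi-likelihood test, Benjamini-Hochberg adjustment over all genes tested, passed at an adjusted p under 0.05. Each comparison used its own groups, and age and interaction used 1 fit of the 18 mice. The script was tested on simulated data. DESeq2 1.42.0, RLE size factors, no filter, length and GC correction (splines with 5 degrees of freedom), replicate block, lane, the study's fold limits and leaving out each mouse were tried as alternatives. Names, coordinates and exon lengths came from GENCODE M21. Members, lists and tests were chosen with earlier results of these data known. Besides the 7 genes, pathway genes that passed were named (where over 6 passed in a comparison, the 6 with the smallest adjusted p), and the 10 genes most like the 7, with a prior count of 1 for log2 CPM. Srebf2, Apoe and Ctsb were named after their values were seen. Some genes of the lists count in the totals but are not reported here by name. Numbered samples were taken as separate mice, which the labels do not state, so p-values measure only the spread between samples, which may be technical.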

Additional observations from a re-analysis of the deposited data

Results flagged for a closer look

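Of 49 combinations of a gene and a group of 4 to 10 mice, 8 held a mouse whose gap to its nearest neighbour passed Dixon's critical value, as chance does in about 5% of groups. Replicate 9 labelled FMN2+/+_APP accounts for 5 of them, standing above the other 8 mice with 390.0 CPM of Hmgcs1, 108 of Sqle, 3.78 of Idi1, 96.95 of Cyp51 and 94.2 of Fdft1. These genes are correlated, so the 5 are not independent. Fmn2+/+ replicate 4 of 3 months was low, with 296 CPM of Hmgcs1 (next 348) and 63.1 of Cyp51 (next 68.2). APP replicate 2 of 4 months was low in Cyp51, with 70.9 CPM (next 85.5).

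The interaction of genotype and age passed in 2 of 46 pathway genes tested, beside 3.73% of all genes. They were Pmvk (-0.42, adjusted p = 0.0257) and Scap (-0.42, adjusted p = 0.0325, both edgeR). Both calls were lost with Fmn2-/- replicates 2 and 3 of 8 months summed, with the length and GC correction and with the replicate block.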

How the results depend on the processing

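No call of any of the 7 genes reversed under any alternative. In the 4-month comparison 6 genes were higher with DESeq2, RLE size factors and the length and GC correction, 5 without the filter, 0 with the study's limit of 0.5 on the log2 scale, and 4 to 6 with each mouse left out. In Fmn2+/+ mice 1 gene was lower with age by DESeq2, and 0 to 2 with each mouse left out. In the other comparisons 0 genes passed under every setting. Further enzymes higher at 4 months were 9, 10 with DESeq2, 1 with the fold limit, 5 without both wild-type mice rich in myelin transcripts (chosen after seeing the data) and 7 to 11 with each mouse left out.

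Same-numbered mice deviated together little on average (mean r of 0.057 at 3 months, -0.035 at 8 months, 0.071 in the cross and 0.0085 at 4 months). With 3 to 7 such pairs in a comparison, these values cannot settle whether the numbers pair mice. With the replicate number as a block 4 genes were higher at 4 months, 5 with the length and GC correction added, and 0 in the other comparisons. In age comparisons within a genotype no block was fitted.

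Counts over all genes moved more. At 3 months 5 became 157 with DESeq2, 3 with RLE size factors, the correction or lane, 14 without the filter, 2 with the block and 3 to 54 with each mouse left out, the most without Fmn2-/- replicate 1. At 8 months 166 became 697 with DESeq2, 1124 without the filter, 29 with the length and GC correction, 4 with the block (6 with the correction added), 3 with lane, 5 with replicates 2 and 3 summed, and 4 (without Fmn2+/+ replicate 1) to 3417 (without Fmn2+/+ replicate 2) with each mouse left out. The interaction's 635 became 1449 with DESeq2, 399 without the filter, 24 with the correction, 0 with the block, 227 with the summed pair and 8 to 2846 without the same mice. With age 1787 became 1103 with the correction and 482 to 3307 with each mouse left out in Fmn2+/+ mice, the extremes without 8-month replicates 3 and 2, and 1503 became 849 in Fmn2-/- mice and 973 with the summed pair. In the cross 261 became 757 with DESeq2, 454 with the correction, 129 with the fold limit, 121 (without replicate 1 labelled FMN2+/+_APP) to 369 with each mouse left out, 398 without both mice of lane 7 only and 85 without both mice rich in choroid plexus transcripts. At 4 months 637 became 392 with the fold limit. The cause was not tested. Median r of the 7 genes was 0.71 over all mice, 0.66, 0.80 and 0.53 within the experiments, and 0.60 without the 2 farthest mice.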

Other observations

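Genes just behind the 10 most like the 7 were looked at after their values were seen. Acly, which makes the cytosolic acetyl-CoA from which both sterols and fatty acids are built, stood in place 11 with an r of 0.72 over 46 mice. Rnf11, a ubiquitin ligase of the RING type, followed with 0.72. Cct8, a subunit of the cytosolic chaperonin, had 0.71, Hspd1, the mitochondrial chaperonin, 0.71, and Dnaja1, a co-chaperone of the heat shock proteins, 0.71. For Cct8 r was 0.90 in the cross, 0.42 in the Fmn2 experiment and 0.37 in the 4-month mice, and for Hspd1 0.88, 0.36 and 0.46. The cross holds replicate 9 labelled FMN2+/+_APP, and these values carry no test.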
